A study of Sus scrofa with 3 samples.

Results

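CXCL14, C3H2orf40, SERPINI1, SLC15A2 and ATP6V1C2 are 5 genes, of 6765 named genes on the array, whose signals were much higher in a sham minipig lung than in either lung measured after ischemia-reperfusion. They were taken by gene symbol, as all 9 probe sets whose single annotated gene is one of the 5, out of 23935 probe sets that are not controls. The symbols were chosen from the ratios of both lungs against sham, so those ratios describe the choice and are given with no test.

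The study closed the left pulmonary artery of minipigs for a time, without the bronchus, and reopened it, so that the lung stayed ventilated through the injury. The samples are lung tissue RNA of a sham minipig, of the operated left lung after ischemia-reperfusion, and of the non-operated right lung after ischemia-reperfusion. Each of the 3 groups is 1 Affymetrix porcine array, a chip that reads each transcript by short probes grouped into probe sets. The sources used here do not give breed, age, sex, the length of occlusion and reperfusion, any pooling, or whether both lungs came from 1 animal. With 1 array per group no difference has a replicate check, the 2 comparisons against sham share the sham array, and condition, animal and array cannot be told apart.

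The 5 genes belong to unrelated protein families. CXCL14 is a chemokine that epithelial and stromal cells of many tissues make without inflammation. C3H2orf40, the pig counterpart of human C2orf40 or ECRG4, encodes augurin, a secreted peptide precursor known from the choroid plexus and other epithelia and linked to quiescence of cells. SERPINI1 encodes neuroserpin, a serine protease inhibitor best known from neurons, where it restrains tissue plasminogen activator. SLC15A2 encodes PEPT2, which carries small peptides into cells together with protons and is known from kidney, choroid plexus and lung epithelium. ATP6V1C2 encodes a tissue-restricted form of the C subunit of the vacuolar proton pump, whose widely expressed form is ATP6V1C1. In bulk tissue, fewer cells of a type and less RNA per cell cannot be told apart.

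Signals are MAS5 values, given on the linear scale unless log2 is named, and probe sets are compared only with themselves across arrays. The median signal of each array served as a floor for low values. This floor was 160.7 on the sham array, 158.6 on the non-operated and 158.7 on the operated array. A value at or below it was set to the floor, so a ratio against such a value is a lower bound and is written as at least that fold. As a check for lung tissue, the surfactant gene SFTPC had log2 signals of 14.44 in sham, 14.56 in the non-operated lung and 14.52 in the operated lung. These lay near the highest log2 signal of each array, 14.83, 14.92 and 14.79. This gene alone does not show whether the samples held like shares of cells. AGER, an alveolar type 1 gene, was below the floor in sham, at a log2 signal of 5.01. It was above the floor in the non-operated and operated lung, at 8.27 and 8.13.

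The secreted signalling proteins stood at the head of the set. The brighter CXCL14 probe set read 5625 in sham, 318.9 in the non-operated lung and 335.0 in the operated lung. The sham array alone was high, and the other arrays lay at about 2.01 and 2.11 times the floor. CXCL14 was thus 17.6-fold lower in the non-operated lung and 16.8-fold lower in the operated lung than in sham. The other CXCL14 probe set read 3287, 200.6 and 157.9 in the same order, with the operated lung below the floor. It gave 16.4-fold lower for the non-operated and at least 20.7-fold lower for the operated lung. Over both probe sets the log2 ratio was -4.09 ± 0.08 (SD between probe sets, n = 2) for the non-operated and -4.22 ± 0.21 for the operated lung, where 1 of the values is a bound. This SD describes probe sets that share the same arrays, and says nothing of the spread between animals.

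C3H2orf40 had the lowest ratio of all counted genes in each lung against sham at this floor, though not at a floor on the 75th percentile, where it was at -3.06 and CXCL14 at -3.23 in the operated lung. Its probe set read 4995 in sham, 136.6 in the non-operated lung and 128.8 in the operated lung. The sham signal was 31.1 times the floor, while both other signals lay below it. Augurin transcript was therefore at least 31.5-fold lower in each lung. A gene below the floor in both lungs after ischemia-reperfusion has no order between them.

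SERPINI1, the protease inhibitor, read 1985 in sham, 216.6 in the non-operated lung and 161.8 in the operated lung. All 3 signals lay above the floor, the operated one by a factor of 1.02. SERPINI1 was 9.17-fold lower in the non-operated and 12.3-fold lower in the operated lung. Like C3H2orf40 it rests on 1 probe set, so no spread between probe sets can be given.

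SLC15A2, the peptide transporter, was read by 3 probe sets, and each was highest on the sham array. The brightest read 1813 in sham, 216.8 in the non-operated lung and 235.7 in the operated lung, which is 8.36-fold and 7.69-fold lower. The next read 1127, 100.8 and 105.3, with both lungs after ischemia-reperfusion below the floor, and gave at least 7.11-fold and 7.10-fold lower. The dimmest read 551.8, 80.5 and 132.7 and gave at least 3.48-fold lower in both. The size of its bound is set by its sham signal of 3.43 times the floor. Over the 3 probe sets the log2 ratio was -2.56 ± 0.67 (SD between probe sets, n = 3) in the non-operated and -2.52 ± 0.63 in the operated lung, with 2 of the 3 values being bounds.

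ATP6V1C2, the proton pump subunit, was read by 2 probe sets. Its brighter probe set, of a kind whose probes can match several transcripts, read 1278 in sham, 23.0 in the non-operated lung and 3.84 in the operated lung. Its other probe set read 583.8, 7.31 and 19.6. Both sets were above the floor on the sham array and far below it on the others, and they ordered the other arrays in opposite ways. The brighter set was lower by at least 8.06-fold in the non-operated and 8.05-fold in the operated lung. The other set gave at least 3.68-fold lower in each.

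**Figure D1:**
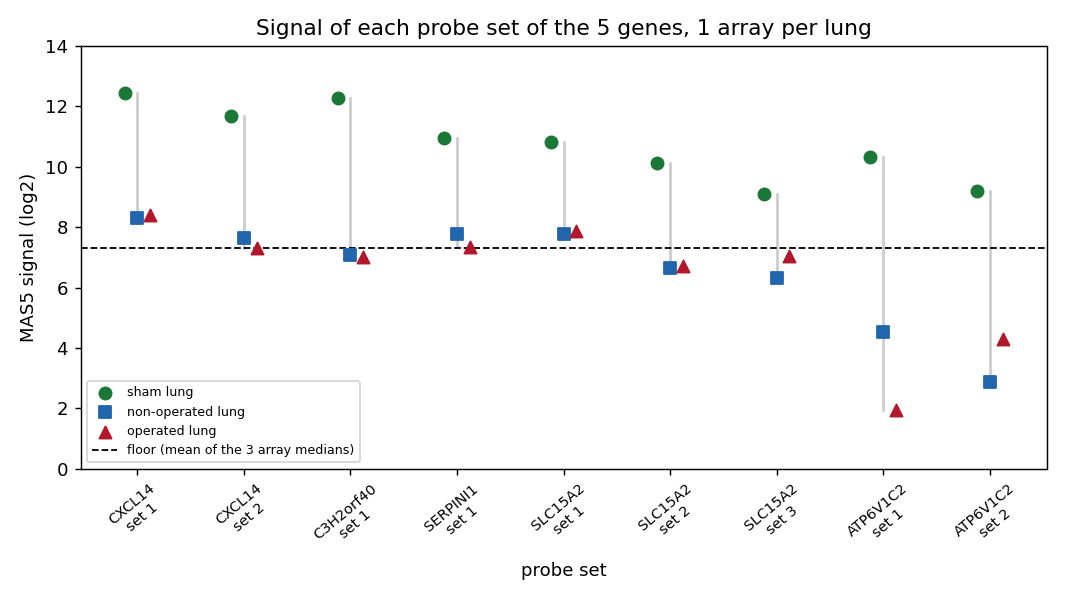
Log2 MAS5 signal (vertical axis) of the 9 probe sets of the 5 genes (horizontal axis, numbered from the brightest set of each gene) on the sham, non-operated and operated arrays. Each point is 1 array, grey lines join the points of a probe set, and the dashed line is the floor. All 9 sham points lie between 9.11 and 12.46, above the other points of the same set, and 5 non-operated and 6 operated points lie below the floor.

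All 9 probe sets were above the floor on the sham array. Of these, 4 remained above the floor in the non-operated lung and 3 in the operated lung. At the level of genes, 5 of 5 were at least 2-fold lower than sham in the operated lung, where 8.79% of 5097 counted genes were. The same 5 of 5 were at least 2-fold lower in the non-operated lung, where 8.55% of 5113 genes were. At an 8-fold threshold, 4 of 5 passed in the operated lung against 0.294% of genes, and 5 of 5 in the non-operated lung against 0.293%. SLC15A2, at 7.69-fold in the operated lung, was the gene of the 5 just outside that threshold and ATP6V1C2, at 8.05-fold or more, the gene just inside. These shares follow from how the genes were chosen. C3H2orf40 and ATP6V1C2 were counted through their sham signal alone.

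In a ranking of 5050 genes by the ratio nearer to 0 of both lungs against sham, C3H2orf40 was at rank 1, CXCL14 at rank 3, SERPINI1 at rank 8, ATP6V1C2 at rank 12 and SLC15A2 at rank 13. In both lungs together 7.21% of these genes were at least 2-fold lower and 0.238%, or 12 genes, at least 8-fold lower. The ranks of C3H2orf40, ATP6V1C2, CD79B and SPIB rest on bounds set by the floor and are no exact order. CXCL13, a B-cell attracting chemokine, was at rank 2, with CD79B of the B-cell receptor at rank 4, LTB, the lymphotoxin beta gene, at rank 5 and the B-cell transcription factor SPIB at rank 9. TOP2A, a topoisomerase, PCLAF, a partner of the replication clamp, and CCNB1, a mitotic cyclin, took ranks 6, 7 and 10. RRM2, a subunit of ribonucleotide reductase, at rank 11 lay directly before ATP6V1C2, and RRM2B, a related subunit, followed SLC15A2 at rank 14.

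**Figure D2:**
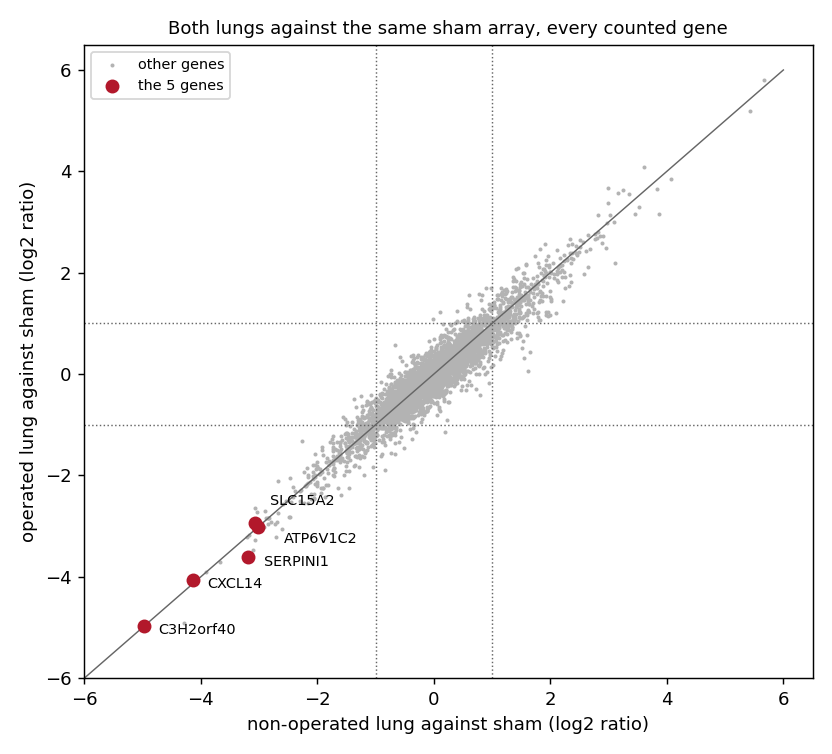
Log2 ratio of the operated lung (vertical axis) against that of the non-operated lung (horizontal axis), both against the same sham array, for every gene counted in both comparisons. Dotted lines mark 2-fold, the solid line marks equal ratios, and the 5 genes are the red points, from -2.94 and -3.06 for SLC15A2 to -4.98 on both axes for C3H2orf40. Because the axes share the sham array, the diagonal shape is no measure of likeness between the lungs.

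The operated and non-operated lungs could be compared for 3 of the 5 genes. Their log2 ratio is the difference of both ratios against sham, so it is not independent of the choice of genes. By the brightest probe set, operated against non-operated lung was at 0.07 for CXCL14, 0.12 for SLC15A2 and -0.42 for SERPINI1. The other CXCL14 probe set was on the opposite side, at -0.34 or lower. C3H2orf40 and ATP6V1C2 were below the floor on both arrays and were not counted. Of the 3 counted genes, 0 were at least 2-fold lower, a size that 9 genes, or 0.182% of 4944, reached. In the higher direction 0 of the 3 passed 2-fold, where 0.0607% of genes did. As a measure of how far dim signals of these 2 arrays lie apart, 1840 counted genes had a mean log2 signal between 7 and 9 on them. Their absolute log2 ratio, with low values set to the floor, had a median of 0.20 and a 95th percentile of 0.61. Setting low values to the floor draws the ratios of the dimmest of these genes toward 0. SERPINI1 lies inside that range, so its lower value on the operated side is not larger than the spread of genes of like signal.

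Genes with the most similar pattern were sought by the Euclidean distance between pairs of log2 ratios against sham, over 3855 genes with a sham signal at least 2 times the floor. With 3 arrays this is a distance over 2 values and describes these arrays alone. The 5 genes were chosen by these same ratios, so the nearest genes largely repeat the ranking above. Their nearness is no evidence of a shared cell source or process. Nearest to CXCL14 were CD79B at a distance of 0.29, LTB at 0.59, CXCL13 at 0.85 and TOP2A at 0.99. The genes nearest to C3H2orf40 were CXCL13 at 0.70, CXCL14 at 1.23, CD79B at 1.51 and LTB at 1.82. CD79B, LTB and CXCL13 were among the 4 nearest genes of both CXCL14 and C3H2orf40. SERPINI1 lay 0.06 from TOP2A, 0.18 from CCNB1, 0.36 from RRM2 and 0.41 from PCLAF, all genes of DNA replication or mitosis. Whether the 5 genes come from cells other than lymphocytes was not tested and cannot be checked on 3 arrays of whole tissue. SLC15A2 and ATP6V1C2 were nearest to each other, at 0.09. The next for both were RRM2B, RFC3, a replication clamp loader subunit, and UBE2T, a ubiquitin-conjugating enzyme of DNA repair, at distances between 0.09 and 0.23. Several of these distances rest on bounds, those of C3H2orf40, ATP6V1C2 and CD79B in both lungs and of RFC3 in the non-operated lung.

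Relatives of the 5 genes were set beside them to see whether whole families shared the pattern. Over all counted genes the median log2 ratio was -0.11 in the operated and -0.10 in the non-operated lung, and 8.65% and 8.96% of genes were at least 2-fold higher. Of 10 CXC chemokines and receptors on the array, all counted, 2 were at least 2-fold lower and 1 higher in each lung, with a median log2 ratio of -0.27 in the operated and -0.23 in the non-operated lung. CXCL13 had log2 signals of 12.72 in sham, 8.43 in the non-operated and 7.81 in the operated lung. CXCL12, a stromal chemokine that guides lymphocytes and stem cells, was at a log2 ratio of -2.05 in the operated and -1.89 in the non-operated lung. PPBP, a platelet chemokine, was on the other side, at no less than 3.86 and 4.08. The inflammatory chemokine genes CXCL8, CXCL2 and CXCL9 lay between -0.91 and -0.06. CXCR4, the CXCL12 receptor, was at -0.69 and -0.57. The chemokine family therefore held members on both sides.

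The other serpins were counted in part, since 8 of the 14 on the array lay below the floor in all lungs. Of the 6 counted, 0 were at least 2-fold lower in either lung, and the medians were 0.13 in the operated and 0.48 in the non-operated lung. SERPINB1, an inhibitor of neutrophil proteases, was at 0.97 in the operated and 1.21 in the non-operated lung. SERPINE2, which like neuroserpin acts on plasminogen activators, was at 0.16 and 0.14. SERPINB11, above the floor in sham and at log2 signals of 1.52 in the non-operated and 1.17 in the operated lung, was the gene of the list with a ratio below 0, at -0.69 or lower in both. As this is a bound, SERPINB11 may also be more than 2-fold lower. Among plasminogen activators and their partners, 0 of 4 counted genes of 5 on the array were at least 2-fold lower. PLAT, the tissue plasminogen activator that neuroserpin inhibits, was at 0.76 in the operated and 0.68 in the non-operated lung. The urokinase gene PLAU was at -0.32 and 0.47. ANXA2, a surface partner of plasminogen, was at 1.27 and 1.14.

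Peptide transport genes other than SLC15A2 were few and mostly dim. Of 6 on the array 3 were counted, with 0 at least 2-fold lower in either lung. SLC15A1, the intestinal peptide transporter, was below the floor on all arrays, at log2 signals of 2.19, 2.53 and 3.03 for sham, non-operated and operated lung. SLC15A3 and SLC15A4 were not analysed here. DPP4, a surface peptidase, was at 1.11 in the operated and 0.84 in the non-operated lung. SLC9A3R1, a scaffold of membrane transporters, was at 0.14 and -0.02.

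Proton pump subunits other than ATP6V1C2 lay on both sides of 0. Of 16 on the array 14 were counted, with a median of 0.29 in the operated and 0.16 in the non-operated lung. In the operated lung 0 were at least 2-fold lower and 1 higher, and in the non-operated lung 1 was lower and 1 higher. ATP6V1C1, the other C subunit form, had log2 signals of 11.18 in sham, 11.17 in the non-operated and 11.39 in the operated lung. Its ratios were -0.01 and 0.22 while those of ATP6V1C2 were -3.01 or lower. ATP6V1A, the catalytic subunit, was the lowest of the rest, at -0.95 in the operated and -1.13 in the non-operated lung. TCIRG1, a membrane subunit of osteoclasts and macrophages, was the highest, at 2.93-fold higher in the operated and 2.83-fold higher in the non-operated lung. Of subunits typical of acid-secreting epithelium, ATP6V0D2 was below the floor on all 3 arrays and ATP6V0A4 was above it in sham alone, at a log2 signal of 7.37.

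**Figure D3:**
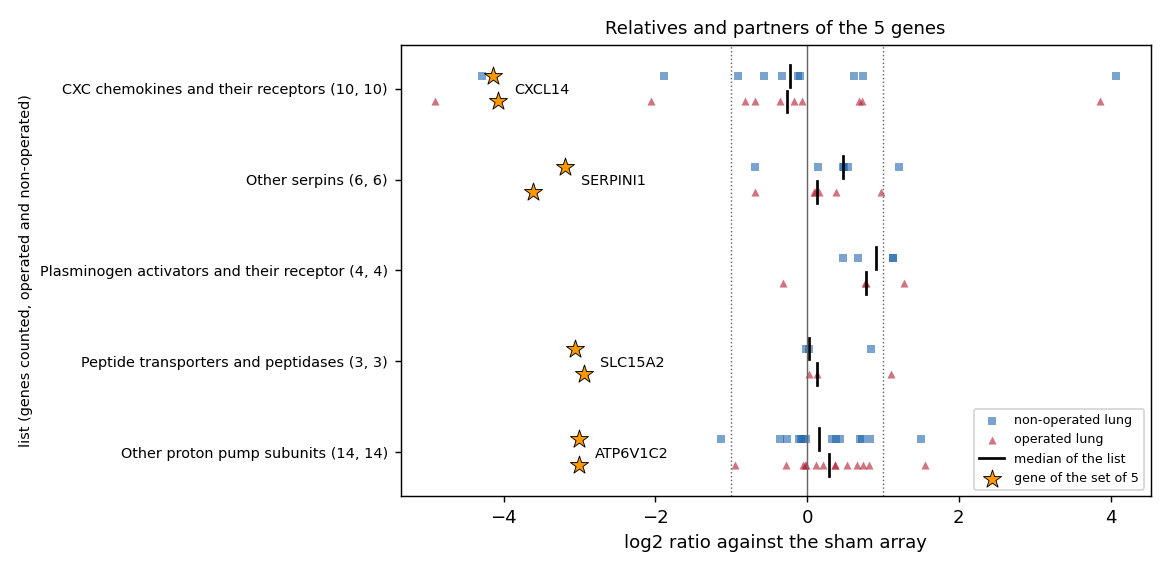
Log2 ratio against the sham array (horizontal axis) of the counted genes in 5 lists of relatives and partners (rows, with the genes counted in the operated and non-operated lung). Squares are the non-operated and triangles the operated lung, black bars are list medians, and stars are CXCL14, SERPINI1, SLC15A2 and ATP6V1C2. The stars of SERPINI1, SLC15A2 and ATP6V1C2 lie to the left of every other point of their rows, while CXCL13 lies to the left of CXCL14. The point of SERPINB11 is a bound set by the floor, so whether SERPINI1 is the lower of them is not known.

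Marker lists of 23 cell types, tissues and processes were set beside the genes, since the 5 are known from different cells. Neither their source nor the part of any list in their signals was tested, and no list holds any of the 5. Lists with a median log2 ratio of -1 or lower in the operated lung were cell cycle, B and plasma cell, T cell and follicular dendritic cell, and the same 4 lay there in the non-operated lung. Of 22 cell cycle genes on the array, 19 were counted and 18 were at least 2-fold lower in each lung, with medians of -2.42 in the operated and -2.06 in the non-operated lung. Their summed signal was 34080 in sham, 8242 in the non-operated and 7319 in the operated lung. Of 9 B and plasma cell genes 8 were counted. The operated lung had 5 at least 2-fold lower and the non-operated lung 6, with medians of -1.70 and -1.66. The summed signal was 36276 in sham, 20176 in the non-operated and 20403 in the operated lung. CD79B, at 11.22 in sham on the log2 scale, lay below the floor in both lungs, while JCHAIN, the joining chain of secreted antibodies, stayed at 14.15, 13.66 and 13.64. Of 12 T cell genes 10 were counted, with 6 lower in the operated and 5 in the non-operated lung and medians of -1.24 and -1.04. Here the sums were 6663, 3261 and 3031 in the same order. LCK, a T-cell kinase, was at -1.93 and -1.70.

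Follicular dendritic cells hold antigen for B cells in lymphoid follicles. Of 10 of their markers on the array 9 were counted and 5 were at least 2-fold lower in each lung, with a median of -1.10 in both. The summed signal was 28378 in sham, 10285 in the non-operated and 9111 in the operated lung. Besides CXCL13, the complement gene C4A was at -2.24 in the operated and -1.46 in the non-operated lung, and CLU, the clusterin gene, at -1.91 and -1.51. VCAM1, an adhesion molecule also of activated endothelium, was at -1.63 and -1.67. MADCAM1, the mucosal addressin, was at -1.10 or lower in both, and this bound is the list median. TNFRSF1A was on the other side, at 1.05 and 0.98, and SERPINE2, MFGE8 and DSP lay between -0.15 and 0.18. CR2, FCER2 and FDCSP, which define these cells, were not analysed here. In the list for the reticular stroma of lymph nodes, 3 of 7 counted genes of 8 were lower in each lung, with a median of -0.21 in both. CCL19, a chemokine of T-cell zones, was at -1.79 and -2.04, CXCL12 and VCAM1 are named above, and ICAM1 was at 1.42 and 1.48. Of 6 dendritic cell genes 3 were counted, with medians of -0.14 in the operated and 0.12 in the non-operated lung. IRF8, a transcription factor that B cells share, was at -1.32 and -1.44, and CD83 at -0.14 and 0.26.

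Lists for nerve, choroid plexus and other tissues outside the lung's main cell types followed. Of 14 neuronal and neuroendocrine genes, 3 were above the floor in sham and 1 in each other lung. STMN2, which acts on neuronal microtubules, was at a log2 signal of 9.59 in sham, 4.25 in the non-operated and 4.46 in the operated lung, a log2 ratio of -2.28 or lower in both. SCG5, above the floor on all arrays, was on the other side, at 0.59 in the operated and 0.56 in the non-operated lung. SCG2 was at -0.03 or lower in both, a bound that is also the list median. CHGA, CHGB, SYT1, SNAP25 and UCHL1 were below the floor on all arrays. Of 6 choroid plexus genes 4 were counted, 0 were lower and AQP1, also an endothelial gene, was at 1.14 and 1.55. TTR, the marker that defines choroid plexus, was below the floor on all arrays. Of 6 Schwann cell and glial genes 3 were counted, with CRYAB at 1.96 and 2.34 and none at least 2-fold lower in either lung. Of 4 ionocyte and intercalated cell genes 1 was counted, and CFTR and KIT were below the floor on all arrays. Of 5 genes of thymic epithelium 2 were counted, with 0 lower. CTSV was at 1.30 in both. Of 6 genes of bronchial cartilage 1 was counted and 0 were lower.

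Epithelial lists of the airways and alveoli held 1 gene at least 2-fold lower in either lung, DAPL1 of the basal cell list. Of 8 airway secretory genes 5 were counted and 0 were at least 2-fold lower, with medians of 0.65 in the operated and 0.52 in the non-operated lung. SLPI, an antiprotease of airway fluid, was at 2.73 and 2.86. Of 4 ciliated cell genes 3 were counted, with 0 beyond 2-fold. Of 3 basal cell genes 2 were counted, and DAPL1 was at -2.17 or lower in both lungs, from a sham log2 signal of 9.48. The other counted gene, PDPN, was higher than sham, at 0.84 in the operated and 1.10 in the non-operated lung. Of 7 alveolar type 2 genes, all counted, 0 were lower, with medians of 0.67 and 0.12, and SLC34A2, a phosphate transporter, was at 1.29 and 0.95. Of 8 alveolar type 1 genes, all counted, 0 were lower, with medians of 1.15 and 1.28, and HOPX was at 2.40 and 2.34. Of 6 mesothelial genes 3 were counted, with 0 beyond 2-fold.

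Stromal, vessel and macrophage lists were likewise on the other side or near 0. Of 16 endothelial genes 13 were counted, 12 of them at least 2-fold higher in the operated and 11 in the non-operated lung, with medians of 1.53 and 1.55 and 0 lower. TMEM100 was at 2.19 and 3.10, and THBD, the thrombomodulin gene, at 1.98 and 2.57. Of 4 genes of lymphatic endothelium 3 were counted, with 0 lower, and LYVE1, the hyaluronan receptor, was at 2.19 and 1.79. Of 7 smooth muscle genes 6 were counted, 4 higher in each lung, with medians of 1.65 and 1.56, and ACTG2 at 2.54 and 2.31. Of 15 fibroblast and matrix genes 14 were counted, with medians of 0.25 and 0.30. In the operated lung 2 were lower and 1 higher, and in the non-operated lung 0 were lower and 2 higher. DPT, the dermatopontin gene, was at 1.24 and 1.62, and MFAP5, of elastic microfibrils, at 0.78 and 1.61. LUM and FBLN1, both matrix proteins, were at -1.24 and -1.20 in the operated and -0.75 and -0.67 in the non-operated lung. Of 10 tissue macrophage genes, 6 were higher in each lung, of 7 counted in the operated and 8 in the non-operated lung. MRC1, the mannose receptor, was at 2.53 and 2.44.

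**Figure D4:**
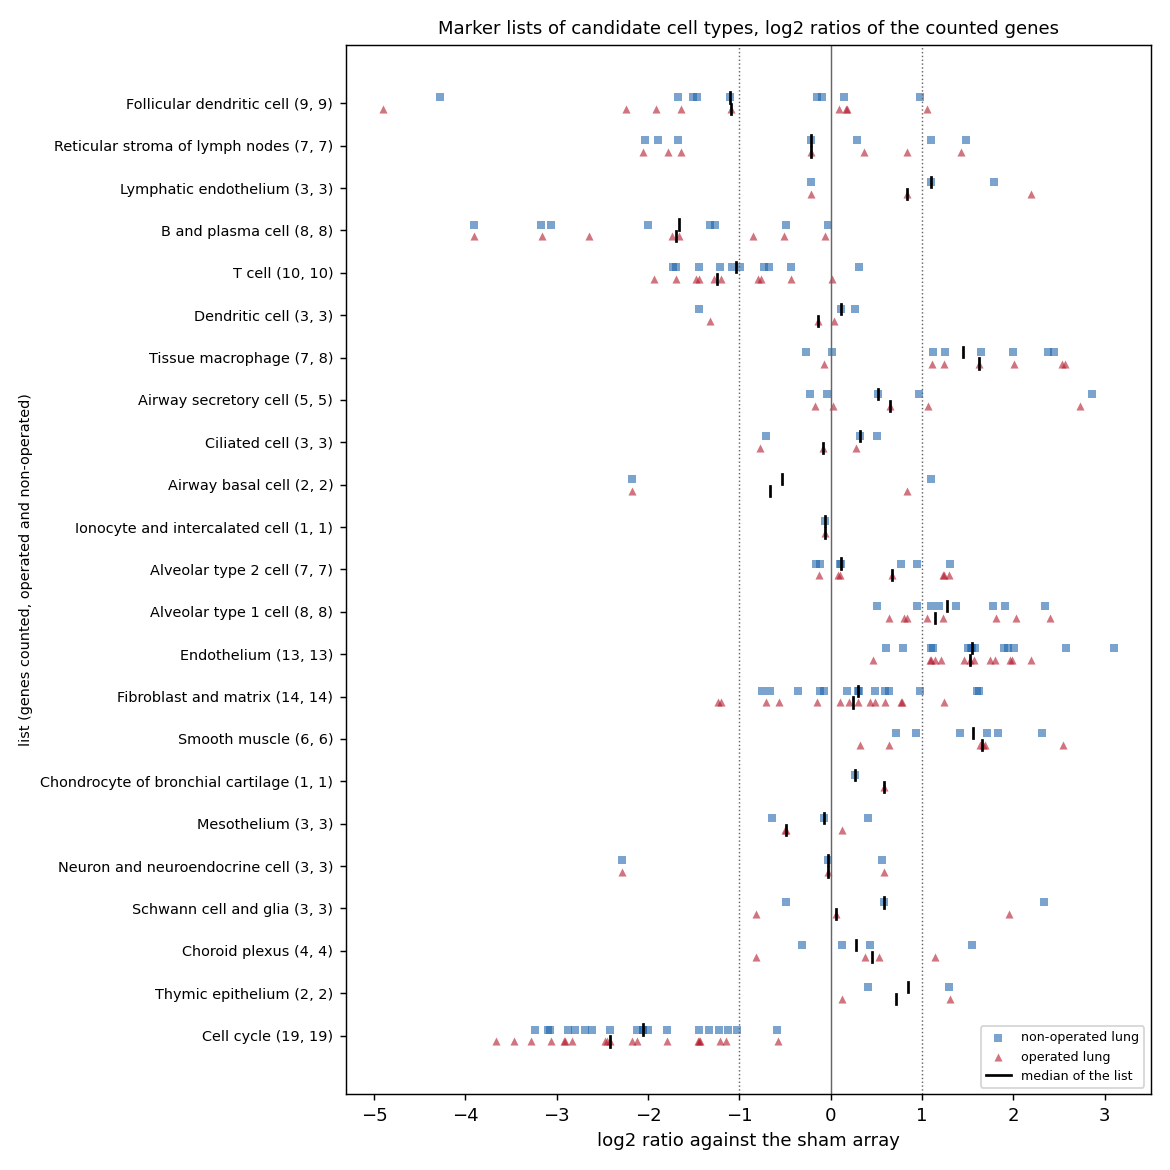
Log2 ratio against the sham array (horizontal axis) of the counted genes in 23 marker lists (rows, with the genes counted in the operated and non-operated lung). Squares are the non-operated and triangles the operated lung, and black bars are list medians, which reach -2.42 for cell cycle and 1.65 for smooth muscle in the operated lung. Rows with 1 to 4 genes show single genes more than a list.

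Values that may mark a difference between the animals were read on the same arrays. EIF1AY, a Y-linked gene of translation initiation, had log2 signals of 0.69 in sham, 10.68 in the non-operated and 10.89 in the operated lung. SRY, the testis-determining gene, was below the floor on all 3, also where EIF1AY was high, so it does not tell the arrays apart. The list's other genes were not analysed here. Sex is not given, and whether the animals differed in it was not tested. Of 8 imprinted growth genes on the array 4 were counted, with 0 lower. GRB10, a brake on growth factor signalling, was at 0.97 and 1.26, and IGF2, a fetal growth factor, at -0.82 or lower in the operated and -0.32 in the non-operated lung. The part of a difference between animals in the 5 genes was not tested, and with 1 array per group it cannot be told apart from the operation.

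Genes that lie beside the 5 on the chromosome were read after the values of the 5 had been seen, taking up to 2 counted genes on each side within 10 entries of the RefSeq gene order of the pig assembly Sscrofa11.1. Of 14 such genes, 6 were at least 2-fold lower in both lungs and 1 higher, where 7.21% of all genes were lower in both. EAF2, an elongation factor partner expressed in B cells, is next to SLC15A2 and the annotated spans of these genes overlap. It had log2 signals of 11.67 in sham, 8.61 in the non-operated and 9.02 in the operated lung, with ratios of -3.06 and -2.65. CD86, a costimulatory molecule of antigen-presenting cells on the other side of SLC15A2, was at -1.51 in the operated and -1.32 in the non-operated lung. Whether any SLC15A2 probe also binds EAF2 transcripts was not tested.

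Beside ATP6V1C2, all 4 counted neighbours were at least 2-fold lower in both lungs. They were PDIA6, a folding enzyme of the endoplasmic reticulum, PQLC3, NOL10, a nucleolar protein, and ODC1, which starts polyamine synthesis. Their ratios lay between -1.48 and -1.31 on the operated side and between -1.40 and -1.03 on the non-operated side. Neighbours of SERPINI1 lay on both sides of 0, while those of C3H2orf40 and CXCL14 were below 0 in both lungs by less than 2-fold. PDCD10, next to SERPINI1, was at -0.34 in the operated and -0.38 in the non-operated lung, while MECOM, on its other side, was at 1.89 and 1.55. UXS1, next to C3H2orf40, was at -0.34 and -0.29, with FHL2 and MRPS9 between -0.43 and -0.21. H2AFY, near CXCL14, was at -0.81 and -0.76.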

How the data were processed

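The authors deposited 1 log2 value per probe set and array, and per the submitters' processing notes these come from MAS5, which scales each array by itself. The sources used here do not give the MAS5 version, scaling target or detection calls. Per the labels' protocols, RNA was amplified and labelled by a 3' in vitro transcription kit. No further scaling was applied, since trimmed mean linear signals were 496.4, 497.0 and 497.2. Of 23935 probe sets that are not controls, 10069 had 1 gene in the platform annotation, 198 had several and 13668 none, and probe sets with several genes named none. All 5 genes matched the RefSeq gene table by identifier. Start and end positions of that table served only for the order and span overlap of neighbouring genes, which were matched by symbol. No probe coordinates were used, because the array's build is not given.

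The brightest probe set by mean log2 signal stood for a gene. Counted genes lay above the floor, the array median, on at least 1 array of the pair. Ratios are differences of log2 signal, and 2-fold is 1 on that scale. Every probe set of the 5 genes is reported, the 4 nearest genes by distance, the 10 lowest genes, and from each list up to 4 genes beyond 2-fold in the operated lung. Relatives and further genes that show a list's range, including those below the floor, were named after their values were seen. The members and lists were chosen with earlier results of these data known. No test was possible with 1 array per group, the number of arrays limits the precision, and the spread between probe sets is the error given. Scaling, floor and probe set choice were varied. The calculations ran in Python 3.11.15 with pandas 2.3.3 and were tested on simulated data. Only genes well above the floor on the sham array were changed there, so it was no check of signals far below the floor.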

Additional observations from a re-analysis of the deposited data

How the results depend on the processing

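All 5 genes were at least 2-fold lower in both lungs against sham under each of the 9 alternatives (3 scalings, 3 other floors, a pseudocount of 100 and 2 other probe set choices), and 0 of 90 ratios changed sign. Of these, 62 moved by less than the SD between probe sets of a gene, 0.39 in the operated and 0.41 in the non-operated lung. Some of the 62 could not move. C3H2orf40 and SERPINI1 have 1 probe set, and a lower floor leaves the ratios of CXCL14, SERPINI1 and SLC15A2 as they were. The genes were chosen for large ratios, so a change of sign was unlikely from the start. A floor at the 75th percentile moved every ratio, since it lies above every signal of these genes after ischemia-reperfusion: SERPINI1 was then at -1.73 in both lungs, SLC15A2 at -1.60, ATP6V1C2 at -1.10, C3H2orf40 at -3.06, and CXCL14 at -3.23 and -3.24. Without a floor ATP6V1C2 was at -8.38 in the operated and -5.80 in the non-operated lung, and C3H2orf40 at -5.28 and -5.19. The dimmest probe set of a gene put SLC15A2 at -1.80 and ATP6V1C2 at -1.88 in both. Counts of all genes at least 2-fold lower depended on the floor. Without a floor they were 877 in the operated and 848 in the non-operated lung, against 448 and 437, and with a floor at the 75th percentile 197 and 194. For operated against non-operated lung the 9 genes became 319 without a floor, 63 at a 25th percentile floor, 4 at a 75th percentile floor and 5 with the pseudocount. Without a floor 1 of the 5 genes, ATP6V1C2, was lower there, at -2.58, from signals far below the median of each array. No paired analysis was possible because each group has 1 array.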

Other observations

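Among all probe sets that are not controls, 32 were at least 8-fold lower than sham in both lungs, of which 5 belong to the genes described and 17 have no gene in the annotation. At 16-fold there were 10, of which 3 belong to these genes and 5 have no gene. On the whole array, 13668 of 23935 such probe sets have no gene, so a lack of annotation is not particular to this pattern.

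Further genes close behind the 5 in the ranking, chosen after their values were seen, include some that are in none of the lists used here. Which cells their signals came from was not tested. RGS5, a regulator of G protein signalling in pericytes, was at least 7.11-fold lower in both lungs, from a log2 signal of 10.14 in sham. HPSE, which cleaves heparan sulfate, was 6.57-fold lower in the operated and 8.24-fold lower in the non-operated lung. ADAMDEC1, a metalloproteinase-like protein of mononuclear phagocytes and stroma, was at least 7.18-fold lower in both.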
